A study of Mus musculus with 14 samples.

Results

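Gene expression after carbenoxolone (cbx) was compared with expression after saline in the deep layers of the superior colliculus, the midbrain structure that aligns a visual map in its superficial layers with touch and other senses in its deep layers. The comparison used the 7 deep-layer libraries of 14 in the series, 3 labelled saline and 4 labelled cbx, chosen by their tissue and treatment labels and by no measured value. All came from ICR/CD-1 mice at postnatal day 6 that had received 0.3 to 0.5 µL into the vitreous of the eye between postnatal days 0 and 1, either saline or 50 mM cbx, and each library held the dissected tissue of 3 pooled brains. The remaining 7 libraries, 3 saline and 4 cbx, held the superficial layer of mice treated in the same way. Messenger RNA was selected by its poly-A tail and sequenced in pairs of 150 bases. The sex of the animals is not given in the labels used here.

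Cbx blocks gap junctions, the channels that couple neighbouring cells, and it is used in the newborn eye to stop the spontaneous waves of retinal activity that precede vision. It is also known as an inhibitor of the hydroxysteroid dehydrogenases that convert glucocorticoids between active and inactive forms. Retinal axons end mainly in the superficial layers, so cells of the deep layers are reached by retinal activity largely through other collicular neurons. The drug was placed in the eye and RNA was measured in the brain.

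The deep libraries held 33180530 to 48776827 counts. In bulk tissue, fewer cells of a type and less RNA per cell cannot be told apart. The layer label was checked against collicular markers in the saline libraries. Pou4f1, a factor of deep-layer neurons, had a mean of 124 CPM (read counts scaled to library size by TMM) in deep libraries, against 43.0 CPM in superficial ones, while Rorb, a factor of superficial neurons, had 40.9 against 133 CPM. The marker lists as wholes did not bear out the label: 5 of 9 deep markers and 9 of 12 superficial markers had the higher mean in the deep libraries. The summed superficial markers went against the label, with 1444 to 1546 CPM in deep and 1005 to 1118 CPM in superficial saline libraries. The summed deep markers overlapped, at 403 to 439.8 and 418.1 to 483.7 CPM. Among the deep markers that went against it were Dmbx1 (35.8 against 106 CPM) and Lmo1 (50.3 against 120.5 CPM). Sex was unequal between pools. Xist, the RNA that coats the silenced X chromosome in female cells, stood at 0.572 CPM in saline library 1 and at 187 CPM or more in the other 6 deep libraries, and Ddx3y, on the Y chromosome, was 0 in cbx library 4 and between 18.9 and 69.5 CPM elsewhere. The sex marks also leaned by treatment. Of 5 sex-linked genes tested, Xist had a log2 difference (cbx minus saline) of 1.52 and the 4 Y-linked genes were below 0, although the groups overlapped. Sex and cbx were therefore partly tied, and their parts in the results were not told apart. By the levels of Xist and Ddx3y, saline library 1 and cbx library 4 each held one sex, and results are given with and without these 2 pools. The fit without them also left out superficial saline library 1 (Xist at 1.94 CPM) and superficial cbx library 4 (Ddx3y at 0). It therefore had fewer libraries in every group, and the part of sex and of library number in its results was not tested.

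Of 20330 genes tested with edgeR's quasi-likelihood test, 373 passed an adjusted p of 0.05, which is 1.83% of all tested. Expression was higher after cbx for 215 of them (1.06%) and lower for 158 (0.777%). The differences were small: their median size was 0.42 on the log2 scale, and 83 of the 373 differed by at least 1.5-fold, 62 higher and 21 lower. All 373 had no overlap between the 3 saline and the 4 cbx libraries, a pattern found in 3255 genes or 16.0% of all tested. The median over all tested genes was 0.0069. Saline library 3 mattered most for the count, which was 42 without it, 74 without saline library 2, 114 without cbx library 2 and 124 without saline library 1. It was 272, 251 and 224 without cbx libraries 1, 3 and 4. Without both pools of one sex, in a fit with fewer libraries of both layers, 14 genes passed. Of these 12 were among the 373. All 373 kept their direction, which follows from the lack of overlap between their groups and is no separate check. Each p-value reflects how far pooled libraries of a group lay apart, since the labels do not say whether pools came from separate litters.

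**Figure D1:**
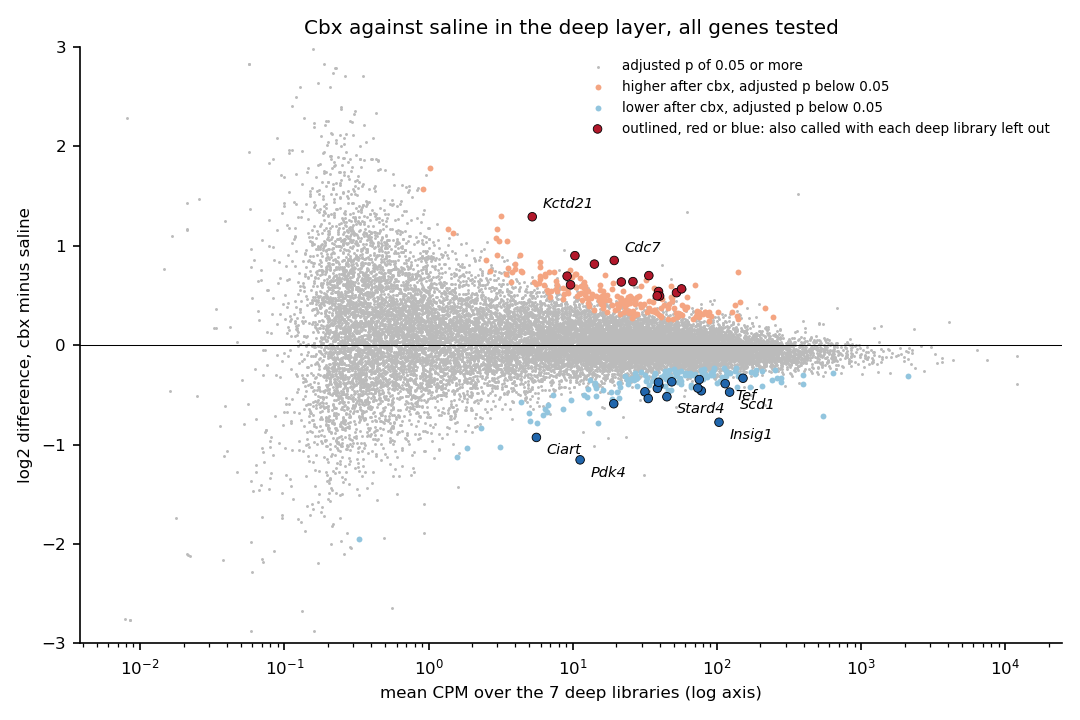
Log2 difference between cbx and saline (vertical axis) against the mean CPM over the 7 deep libraries (horizontal log axis) for the genes tested. Light orange and blue points are the 215 higher and 158 lower genes, outlined points are the 31 that were also called with each deep library left out, and 16 genes lie outside the axis limit of 3.

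**Figure D2:**
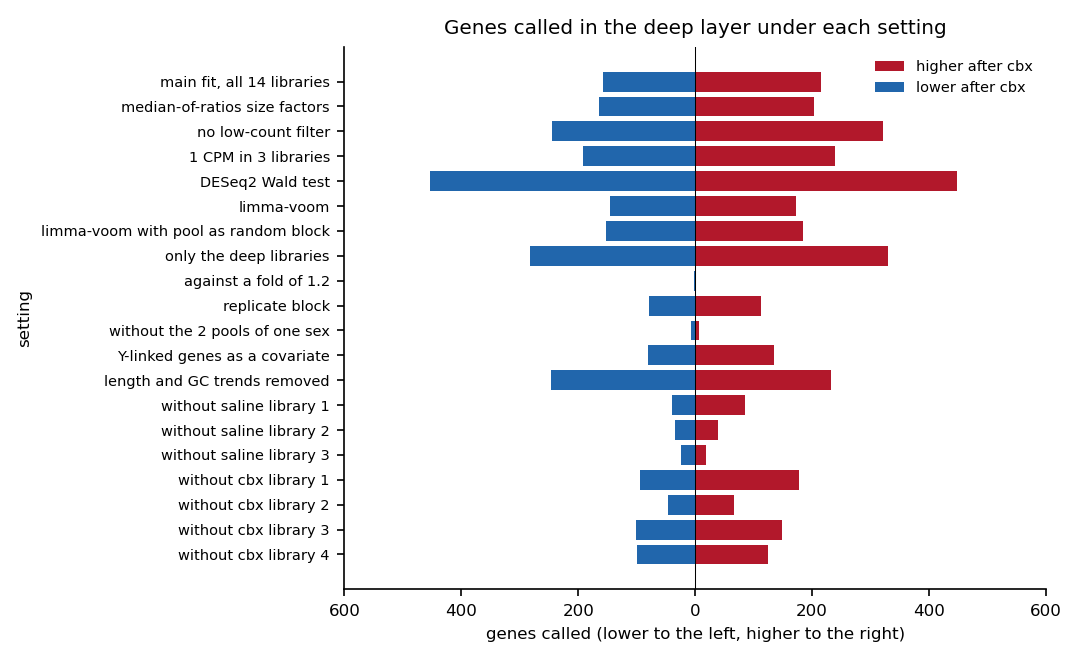
Number of genes called lower (left) and higher (right) after cbx under each setting. The top bar, the fit as reported, shows 158 and 215 genes, and the bar without both pools of one sex is the second shortest, with 14 in all.

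A set of 31 genes (0.152% of those tested) passed in the full fit and in each of the 7 fits that left out 1 deep library, 14 of them higher and 17 lower after cbx. These are the genes described first. With limma-voom in place of edgeR 16 genes met the same rule, all among the 31, and with only the deep libraries in the fit 83 did, 28 of them shared. Without both pools of one sex 6 of the 31 passed (Insig1, Pdk4, Rbm12, Kctd21, Rpgrip1l and Fgd4), and the largest adjusted p of the others was 0.133. All 31 kept their direction there, as they had to with no overlap between groups. Insig1, Pdk4 and Kctd21 kept their call under all 19 alternatives tried.

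Insig1 and Pdk4 had the smallest adjusted p-values. Insig1, whose protein holds the sterol sensor complex of SREBP factors in the endoplasmic reticulum and so lowers cholesterol synthesis, stood at 131, 135 and 141 CPM in the saline libraries and 73.99, 72.9, 82.1 and 87.8 CPM in the cbx libraries. The highest cbx library lay below the lowest saline library, and the log2 difference was -0.78 (SE 0.088, adjusted p = 0.000514). Pdk4, a kinase that shuts off pyruvate dehydrogenase and so spares glucose, stood at 17.2, 15.3 and 16.7 CPM in the saline libraries and 6.47, 5.51, 9.68 and 7.896 CPM in the cbx libraries. Its groups were also apart, with a log2 difference of -1.15 (SE 0.13, adjusted p = 0.000514). Without both pools of one sex the values were -0.85 (adjusted p = 0.0149) for Insig1 and -1.15 (adjusted p = 0.0324) for Pdk4.

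**Figure D3:**
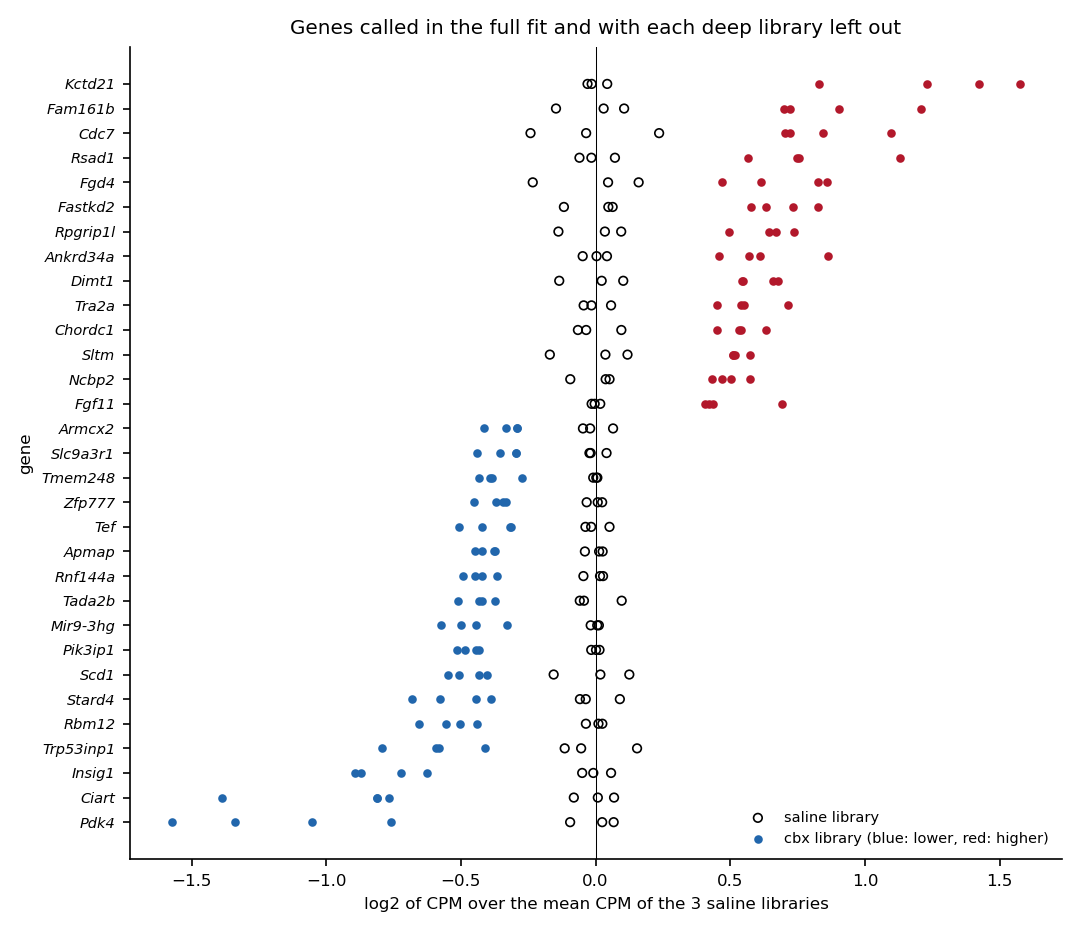
The 31 genes called in the full fit and with each deep library left out, 1 per row, with each library's CPM as a log2 ratio to the saline mean (horizontal axis). Open circles are the 3 saline libraries and filled circles the 4 cbx libraries, which do not overlap in any row.

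The genes that fell included enzymes and regulators of sterol and fatty acid supply. Growing neurons and glia make their own cholesterol, and SREBP transcription factors switch on the enzymes of its synthesis and Insig1 itself. Of 17 genes of sterol uptake and SREBP control, 3 fell and 0 rose, 14 values were below 0 and the list median was -0.19. Over all tested genes 0.777% fell and 48.49% had values below 0. The highest were Nr1h3, an oxysterol receptor, at 0.61 (adjusted p = 0.242) and Insig2 at 0.34 (0.0801). Besides Insig1, Stard4, which carries sterols through the cytosol, stood at 52.99, 57.9 and 52.2 CPM in the saline libraries and 36.5, 33.9, 39.9 and 41.5 CPM in the cbx libraries, a log2 difference of -0.52 (SE 0.088, adjusted p = 0.0065). The SREBP genes themselves were at -0.19 for Srebf1 (adjusted p = 0.16) and -0.07 for Srebf2 (0.636), and Scap, their escort, was at -0.02 (0.91).

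Of 20 enzymes of sterol synthesis, 3 fell and 0 rose, 18 values were below 0 and the list median was -0.18, against a share of 48.49% of all tested genes below 0. Hsd17b7, a reductase of sterol demethylation, went from 38.9 ± 2.004 to 29.6 ± 1.55 CPM (SD, n = 3 and 4), a log2 difference of -0.40 (SE 0.074), and it missed the threshold without saline library 2 (adjusted p = 0.0788). Lss and Msmo1, further enzymes of the pathway, were at -0.32 (adjusted p = 0.0698) and -0.31 (0.0773), and Ebp was the highest value of the list at 0.41 (0.0951). Without both pools of one sex the list median was again -0.18 and none of its genes passed.

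For fatty acid synthesis and elongation, 17 of 18 genes had values below 0, 2 of them fell, 0 rose and the median was -0.15. The shares over all tested genes were 48.49% below 0 and 0.777% called lower. Scd1, the desaturase that makes monounsaturated fatty acids, stood at 159, 147 and 131 CPM in the saline libraries and 110.1, 99.6, 108 and 102 CPM in the cbx libraries. Saline library 3 was the lowest of its group and still above every cbx library, and the log2 difference was -0.47 (SE 0.077, adjusted p = 0.00611). Its paralogue Scd2 stood at 2516, 2347 and 2238 CPM after saline and 1955, 1803, 1975 and 1908 CPM after cbx, a difference of -0.31 (SE 0.073) that lost its call in each of the 7 fits with a library left out (adjusted p 0.053 to 0.175). Fasn, the fatty acid synthase, was at -0.24 (adjusted p = 0.225).

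Of 17 astrocyte markers 2 fell and 0 rose, 13 values were below 0 and 4 above, and the median was -0.18. Over all tested genes 0.777% fell. The summed level of the markers was 4407, 3843 and 3734 CPM in saline libraries 1, 2 and 3. It ran from 3227 to 3720 CPM after cbx, so the ranges lay only just apart. Without both pools of one sex the list median was -0.11 and none of its genes passed. None of the defining markers was at 0. The 2 called were transcription regulators. Sox9 stood at 83.98, 74.4 and 73.02 CPM after saline and 57.4, 51.9, 65.5 and 55.1 CPM after cbx, a difference of -0.42 (SE 0.087), and Id3 at 41.5, 35.2 and 33.7 CPM after saline and 25.5, 24.8, 27.5 and 27.9 CPM after cbx, a difference of -0.48 (SE 0.11). Sox9 passed in 3 of the 7 fits with a library left out and failed without cbx library 2 (adjusted p = 0.0618) or saline library 1 (0.101), 2 (0.0613) or 3 (0.0533), and Id3 failed in all 7 (0.056 to 0.169). Aldh1l1, the folate enzyme often used to mark astrocytes, was at -0.58 (adjusted p = 0.165), and Slc1a3 and Aqp4 were at -0.19 and -0.21. Gfap, the astrocyte filament, was the highest of the list at 0.65 (0.508). The part of astrocytes in the lipid result was not tested.

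Among the lists examined, that of clock repressors and outputs had the largest share of calls. In the molecular clock, CLOCK and ARNTL (BMAL1) switch on genes through E-boxes, the products of the Per and Cry genes and CIART hold them back, and DBP, TEF and HLF pass the rhythm on to other genes. Of 16 repressors and outputs of the clock, 7 fell and 0 rose, 14 had values below 0, 11 had lower cbx libraries with no overlap, and the median was -0.28. Over all tested genes 0.777% fell, 48.49% had values below 0 and 16.0% had no overlap in either direction. The 6 activators tested had no call and a median of -0.12, with Arntl at -0.13 (adjusted p = 0.37) and Clock at -0.10 (0.686). The summed level of the 16 genes ran from 657.6 to 672 CPM after saline and from 534.8 to 547.6 CPM after cbx.

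Among the repressors, Ciart stood at 8.04, 7.25 and 7.71 CPM in the saline libraries and 2.93, 4.37, 4.37 and 4.51 CPM in the cbx libraries. Cbx library 1 was lowest, and the log2 difference of -0.93 (SE 0.16, adjusted p = 0.0065) held with each library left out. Per2, which pairs with the Cry proteins, stood at 16.4, 21.3 and 20.9 CPM after saline and 9.07, 12.6, 12.9 and 10.96 CPM after cbx, a difference of -0.78 (SE 0.15, adjusted p = 0.00992). For Cry1 the libraries held 35.2, 42.8 and 42.3 CPM after saline and 29.5, 27.6, 27.5 and 28.7 CPM after cbx, a difference of -0.50 (SE 0.085), and Cry2 went from 121 ± 4.57 to 93.97 ± 2.73 CPM (SD, n = 3 and 4), a difference of -0.36 (SE 0.063). Per1 was at -0.26 (adjusted p = 0.0984), Nr1d1 at -0.25 (0.109) and Nr1d2 at -0.18 (0.192).

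Of the 3 output factors, Tef stood at 137, 130.3 and 128 CPM in the saline libraries and 92.8, 98.5, 106 and 106 CPM in the cbx libraries, a log2 difference of -0.39 (SE 0.062, adjusted p = 0.00562) that held with each library left out. Dbp stood at 21.1, 23.3 and 23.5 CPM after saline and 15.7, 14.8, 14.1 and 17.8 CPM after cbx, a difference of -0.54 (SE 0.092), and Hlf at 44.3, 46.2 and 44.5 CPM after saline and 34.9, 31.8, 37.7 and 34.2 CPM after cbx, a difference of -0.38 (SE 0.096). All 3 fell, and in none did the groups overlap. Exons of Dbp overlap those of Sphk2, whose counts were 85.8% of those of Dbp, and the reads of both cannot be told apart without a strand setting. Without saline library 3, Cry1 and Dbp had an adjusted p of 0.0533 and Cry2 of 0.0565. Per2 failed without saline library 2 (0.0685) or 3 (0.0628), and Hlf failed in each of the 7 fits (0.0511 to 0.19). Without both pools of one sex, Cry1 (0.0324) and Dbp (0.036) passed and the list median was -0.25. No library's hour of collection is given in the labels.

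Promoters of 4 of the lowered genes are shown because the letters of the E-box, the element that clock activators bind, occur close to their starts. They were picked for holding these letters, and a part of the clock in the fall of Insig1 was not tested. Each is the 160 bases before the start annotated by RefSeq on GRCm38.p6, written 5′ to 3′ on the gene's strand, with each E-box in capitals.
Ciart (chr3:95882229-95882388, minus strand): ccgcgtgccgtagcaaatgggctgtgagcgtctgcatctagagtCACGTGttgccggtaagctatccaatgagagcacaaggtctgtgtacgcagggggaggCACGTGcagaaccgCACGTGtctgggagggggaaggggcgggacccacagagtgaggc
Tef (chr15:81811254-81811413, plus strand): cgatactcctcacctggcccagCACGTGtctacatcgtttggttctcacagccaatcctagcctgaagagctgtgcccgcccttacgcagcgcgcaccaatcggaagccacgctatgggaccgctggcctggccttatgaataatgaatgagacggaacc
Cry1 (chr10:85185055-85185214, minus strand): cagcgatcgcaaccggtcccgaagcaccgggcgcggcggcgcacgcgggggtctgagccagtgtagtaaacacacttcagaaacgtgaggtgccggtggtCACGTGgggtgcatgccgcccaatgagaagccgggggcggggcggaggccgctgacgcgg
Insig1 (chr5:28071252-28071411, plus strand): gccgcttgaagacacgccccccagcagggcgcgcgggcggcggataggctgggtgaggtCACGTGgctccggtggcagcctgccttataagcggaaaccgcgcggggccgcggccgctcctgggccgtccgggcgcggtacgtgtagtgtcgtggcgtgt
Ciart holds 3 copies and the others 1. The motif reads CACGTG on both strands, and its first base lies 138 bases before this start of Tef, 60 before that of Cry1 and 101 before that of Insig1. Tef has another RefSeq start in the table whose window also holds 1 copy.

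Over the 250 bases before the starts, the E-box occurred in 9.11% of the tested genes with a RefSeq window (1202 of 13198), in 15% of the genes called lower (17 of 113) and in 7.06% of those called higher (12 of 170). Of the 16 genes of the clock list 14 had a window, and the E-box occurred in 5 of these, Bhlhe41, Ciart, Cry1, Per1 and Tef. Bhlhe41 and Per1 were not called, and the called genes Per2, Cry2, Dbp and Hlf were not among the holders. Among genes with a window, the E-box also occurred in 3 of 15 sterol synthesis enzymes. It occurred in 3 of 12 genes of sterol uptake and SREBP control and in 1 of 32 ciliary genes. Of the lowered genes called with each library left out, 4 of 14 held it, Ciart, Insig1, Tef and Tmem248, and of the raised ones 0 of 13. The D-box (TTATGTAA or TTACGTAA, either strand), which DBP, TEF and HLF bind, occurred in 0.885% of the lowered, 1.18% of the raised and 0.818% of all genes with a window. The core of the sterol element (CACCCCAC, either strand) occurred in 6.19%, 5.29% and 3.39%. It was found in 2 of the 15 sterol synthesis enzymes and in 0 of the 12 genes of sterol uptake and SREBP control. These are matches of letters in a fixed window and not measured binding.

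Pdk4 was the only call among 20 genes of fatty acid oxidation and ketone use, whose median was -0.016, with Cpt1a, which admits fatty acids to mitochondria, at -0.34 (adjusted p = 0.129). Over all tested genes 0.777% were called lower. Pdk4 is also a common target of the glucocorticoid receptor. Of 19 genes that glucocorticoids induce, it was again the only call, with the classical targets Fkbp5 at -0.05 (adjusted p = 0.846), Tsc22d3 at 0.12 (0.657) and Sgk1 at 0.01 (0.975). Of 6 genes for glucocorticoid receptors and hydroxysteroid dehydrogenases none passed: Hsd11b1, which regenerates active hormone, stood at 12.1, 10.2 and 10.5 CPM after saline and 8.42, 8.93, 9.04 and 9.99 CPM after cbx (-0.26, adjusted p = 0.269), and Nr3c1, the receptor, was at -0.25 (0.348).

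Of 28 genes of glycolysis and pyruvate entry 2 rose and 1 fell, against 1.06% and 0.777% of all tested genes. Slc16a7, a transporter of lactate and pyruvate, stood at 35.1, 26.01 and 25.5 CPM after saline and 42.3, 41.3, 48.2 and 39.6 CPM after cbx, a difference of 0.57 (SE 0.12), and it failed without cbx library 2 (adjusted p = 0.0508) or 3 (0.0584) or saline library 2 (0.144) or 3 (0.124). Gapdhs, the dehydrogenase of sperm, rose from a low level, 1.97, 1.51 and 1.76 CPM after saline and 2.98, 4.89, 4.43 and 3.45 CPM after cbx, and failed without saline library 2 (0.0696) or 3 (0.0565). Its exons overlap those of Tmem147os, which had more counts. Pgam2, the muscle mutase, stood at 6.898, 7.58 and 7.71 CPM after saline and 3.92, 3.77, 5.01 and 4.48 CPM after cbx, fell by 0.79 on the log2 scale and failed without cbx library 1 (0.0546) or 2 (0.0786) or without saline library 1 (0.0576), 2 (0.0991) or 3 (0.0982). The enzymes found in all cells had no call, with Gapdh at -0.07, Pkm at -0.04 and Ldha at 0.07.

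Several other genes that fell in the full fit and with each deep library left out have separate functions. Trp53inp1, a stress gene induced by p53, stood at 26.5, 22.9 and 21.98 CPM in the saline libraries and 13.7, 15.9, 17.9 and 15.8 CPM in the cbx libraries, a log2 difference of -0.59 (SE 0.099). Pik3ip1, an inhibitor of PI3 kinase, stood at 37.7, 38.04 and 37.2 CPM after saline and 27.9, 27.6, 26.3 and 26.9 CPM after cbx, a difference of -0.47 (SE 0.067). The host transcript of a miR-9 gene, Mir9-3hg, went from 92.3 ± 1.03 to 67.2 ± 4.89 CPM, and Rnf144a, a ubiquitin ligase, from 86.4 ± 2.34 to 64.1 ± 2.35 CPM. Slc9a3r1, a scaffold beneath the plasma membrane, went from 85.8 ± 2.13 to 67.6 ± 3.19 CPM (SD, n = 3 and 4 throughout). Rbm12, an RNA-binding protein, was at -0.54 (SE 0.071), Tada2b, a subunit of the SAGA coactivator, at -0.43 (SE 0.069) and Apmap, a membrane protein of fat cells and brain, at -0.40 (SE 0.067). Tmem248, Zfp777 and Armcx2 completed the 17, between -0.37 and -0.33. Exons of Tada2b overlap those of Grpel1, whose counts were 92.6% of its own, so with no strand setting known some of its reads could belong to the other gene.

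Among genes that rose, Kctd21, an adaptor of cullin ubiquitin ligases, had the largest difference of the 31. It stood at 2.96, 2.84 and 2.81 CPM in the saline libraries and 7.69, 8.54, 6.74 and 5.097 CPM in the cbx libraries, so that every cbx library was above every saline one, with a log2 difference of 1.29 (SE 0.18, adjusted p = 0.00211). Cdc7, the kinase that fires DNA replication origins, stood at 12.97, 15.7 and 11.2 CPM in the saline libraries and 21.9, 28.4, 21.7 and 23.9 CPM in the cbx libraries, a difference of 0.85 (SE 0.12, adjusted p = 0.00221). Of 32 genes that license and fire origins it was the only call, their median was -0.027, and 20 mitosis genes had no call and a median of 0.024. Over all tested genes 1.06% were called higher.

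Further genes that rose in the full fit and with each deep library left out have a range of functions. Tra2a, a splicing factor, stood at 43.2, 44.1 and 46.4 CPM after saline and 60.9, 73.1, 64.8 and 65.3 CPM after cbx, a log2 difference of 0.57 (SE 0.076). Ncbp2, which binds the cap of nuclear RNA, went from 31.2 ± 1.71 to 44.02 ± 1.87 CPM, Sltm, an RNA-binding nuclear protein, from 41.8 ± 4.22 to 60.4 ± 1.31 CPM, and Fastkd2, which acts on mitochondrial RNA, from 6.75 ± 0.459 to 10.9 ± 0.833 CPM. Dimt1, a methylase of ribosomal RNA, went from 7.43 ± 0.614 to 11.3 ± 0.558 CPM (SD, n = 3 and 4 throughout). Of the others, Chordc1, a partner of the chaperone HSP90, was at 0.54 (SE 0.082), Fgf11, a growth factor homologue that stays inside the cell, at 0.49 (SE 0.076), Fgd4, an exchange factor for CDC42, at 0.70 (SE 0.11), Ankrd34a at 0.64 (SE 0.1) and Rsad1 at 0.82 (SE 0.13). Exons of Ncbp2 overlap those of Senp5, and exons of Dimt1 those of Kif2a, which had more counts than the gene named.

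Of 10 RNAs kept in the nucleus, a list that includes Xist, all 10 had values above 0 with a median of 0.34, but none passed, and their summed level ran from 7265 to 7619 CPM after saline and from 6146 to 11050 CPM after cbx. Malat1 was at 0.37 (adjusted p = 0.687) and Mirg at 0.59 (0.0683). The 13 mitochondrially encoded genes had a median of -0.12 with no call. Genes called higher had a median GC content of 48.4% and those called lower of 52.6%, against 51.2% for tested genes of at least 1 CPM. The part of nuclear RNA or of GC content in the rises was not tested, and with length and GC trends removed 233 genes were higher and 246 lower.

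Genes of the primary cilium, the antenna that carries Hedgehog and other signals into the cell, were among those that rose. Of 37 tested, 4 rose and 0 fell, 33 values were above 0, and the median was 0.18. Over all tested genes 1.06% rose and 48.49% had values below 0. The summed level ran from 624.2 to 641.7 CPM after saline and from 718.1 to 751.8 CPM after cbx. Rpgrip1l, a scaffold of the transition zone at the base of the cilium, stood at 20.3, 21.2 and 18.02 CPM in the saline libraries and 30.97, 33.1, 31.6 and 27.9 CPM in the cbx libraries, a log2 difference of 0.64 (SE 0.091, adjusted p = 0.00279). Fam161b, a paralogue of a ciliary protein, stood at 6.26, 7.46 and 7.08 CPM in the saline libraries and 16.03, 12.99, 11.2 and 11.4 CPM in the cbx libraries, a difference of 0.90 (SE 0.14, adjusted p = 0.0045), although its exons overlap those of Coq6, which had more counts. Both passed with each library left out.

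Ift80, a subunit of the transport train that moves cargo into cilia, stood at 8.01, 7.64 and 7.05 CPM after saline and 13.01, 12.8, 12.7 and 11.3 CPM after cbx, a difference of 0.72 (SE 0.13). It failed without saline library 2 (adjusted p = 0.0549) or 3 (0.065). Tmem107, a transition-zone protein, stood at 1.69, 1.96 and 1.74 CPM after saline and 3.92, 4.91, 2.799 and 3.54 CPM after cbx, a difference of 1.08 (SE 0.27) that passed only in the fit without cbx library 3 among the 7 (0.072 to 0.164 in the others). The Bardet-Biedl genes Bbs5, Bbs7 and Bbs2 were at 0.56 (adjusted p = 0.0611), 0.36 (0.196) and 0.36 (0.0835), and Mks1 was lowest at -0.17. Without both pools of one sex the list median was 0.23 and Rpgrip1l alone passed, at 0.70 (adjusted p = 0.0359). Markers of choroid plexus and ependyma, whose cells carry many cilia, had no call among 9 tested and a median of 0.052, with summed levels of 70.15 to 78.23 CPM after saline and 68.4 to 73.3 CPM after cbx.

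**Figure D4:**
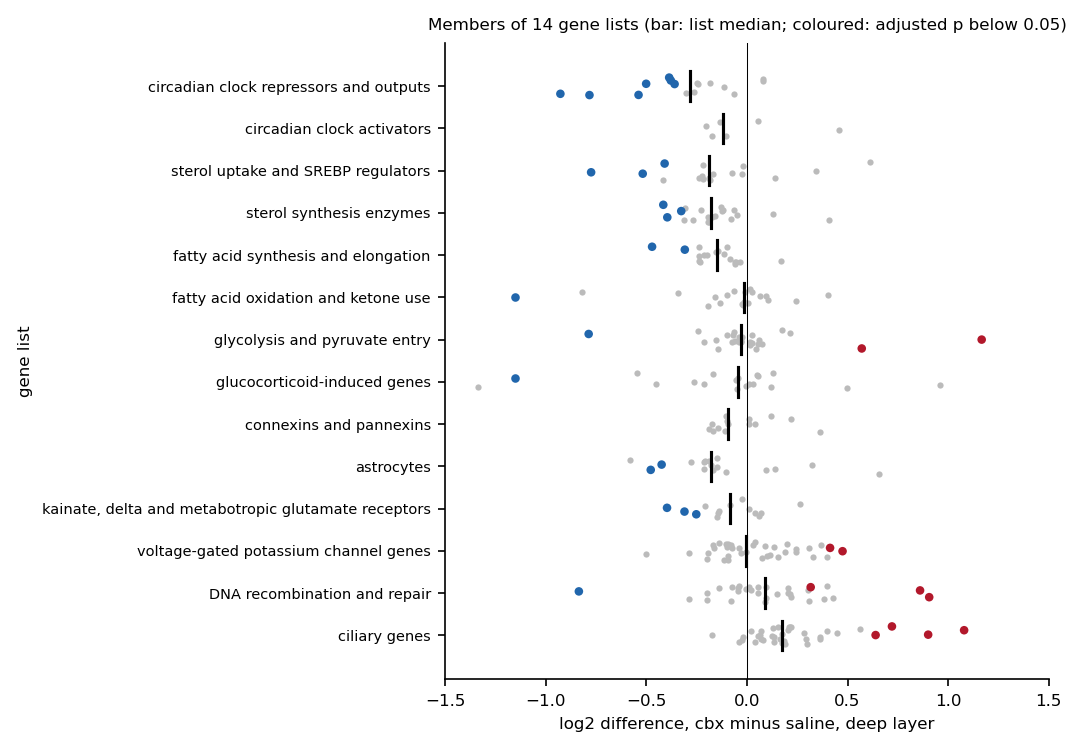
Log2 difference between cbx and saline (horizontal axis) for the tested members of 14 gene lists (rows), with the list median as a bar and called genes in blue (lower) or red (higher). The 16 clock repressors and outputs have 7 called members, all lower, and the 37 ciliary genes have 4, all higher. The axis leaves out 1 member of the glutamate receptor list.

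Among called protein-coding genes of at least 1 CPM, 5 of the 10 largest falls have been described (Insig1, Pdk4, Pgam2, Per2 and Ciart), and so have 5 of the 10 largest rises (Cdc7, Fam161b, Gapdhs, Kctd21 and Tmem107). Il20rb, a subunit of cytokine receptors, stood at 2.23, 2.51 and 2.12 CPM after saline and 0.922, 1.04, 1.195 and 1.03 CPM after cbx, a log2 difference of -1.13 (SE 0.23), and failed without any 1 of the 3 saline libraries (adjusted p = 0.0544, 0.0886 and 0.0565 without libraries 1, 2 and 3). Fn3k, which removes sugars bound to proteins, stood at 1.84, 1.96 and 1.38 CPM after saline and 5.05, 4.94, 3.99 and 2.98 CPM after cbx, a difference of 1.30 (SE 0.22) that failed without saline library 3 (0.0535). Cxcr4, a chemokine receptor that guides migrating cells, stood at 6.77, 6.797 and 6.34 CPM after saline and 4.38, 4.15, 3.62 and 3.48 CPM after cbx, a difference of -0.76 (SE 0.15) that also failed without saline library 1 (0.0638), 2 (0.077) or 3 (0.0565). Cxcr4 was the only call among 13 chemokine and receptor genes, where 0.777% of all tested genes were called lower.

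Lars2, the leucyl-tRNA synthetase of mitochondria, stood at 764, 615 and 722 CPM in the saline libraries and 525, 359, 479 and 341 CPM in the cbx libraries. Both groups varied widely, and the difference of -0.72 (SE 0.14) failed without saline library 1 (adjusted p = 0.0847) or 3 (0.0767). Of 37 aminoacyl-tRNA synthetases it was the only call, and their median was 0.058. Among 31 genes of DNA recombination and repair 3 rose and 1 fell, against 1.06% and 0.777% of all tested genes, and the list median was 0.09. Tert, the catalytic subunit of telomerase, stood at 3.66, 2.69 and 2.34 CPM after saline and 5.49, 6.797, 5.16 and 4.18 CPM after cbx, a difference of 0.91 (SE 0.19), and failed without cbx library 2 (0.0828) or saline library 2 (0.117) or 3 (0.124). The recombination gene Rdm1 was at 0.86 (SE 0.2) and Exo1, a nuclease of DNA repair, at -0.84 (SE 0.19). Among the 7 fits with a library left out, Rdm1 passed only without cbx library 2 (0.0759 to 0.163 in the others) and Exo1 only without cbx library 3 (0.0519 to 0.154). The remaining large changes were in genes of little known function: Gm6356 at -1.02 (SE 0.21), AC124108.1 at 1.05 (SE 0.19) and Tmem35b at 0.91 (SE 0.21). Gm6356 failed without cbx library 2 (0.0525) or saline library 2 (0.0949) or 3 (0.0956), AC124108.1 without saline library 2 (0.0682) or 3 (0.0533), and Tmem35b in 5 of the 7 fits (0.0788 to 0.136), passing without cbx libraries 1 and 4. Exons of Tmem35b overlap those of Zmym6, which had more counts, and exons of AC124108.1 those of Lemd1, whose counts were 87.7% of its own.

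Genes of neuronal signalling changed in few places, and the counts below stand against 0.777% of all tested genes called lower. Of 15 kainate, delta and metabotropic glutamate receptor genes 3 fell and 0 rose, among them Grid1, a delta receptor that binds cerebellins at synapses, and Grik1, a kainate receptor subunit. Grid1 stood at 164, 157 and 153 CPM in the saline libraries and 135, 119, 126 and 128 CPM in the cbx libraries, a log2 difference of -0.31 (SE 0.064), and Grik1 was at -0.25 (SE 0.062). Without cbx library 2 or saline library 1, 2 or 3, Grid1 had adjusted p-values of 0.0744, 0.0929, 0.0816 and 0.0565. Grik1 passed only without cbx library 3 (0.084 to 0.183 in the others). None of the 11 AMPA and NMDA receptor genes, 19 GABA-A and glycine receptor genes or 31 genes of presynaptic release passed, with medians of -0.042, -0.0085 and -0.05.

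Among ion channels, 2 of 37 voltage-gated potassium channel genes and 1 of 9 sodium channel genes rose, and none fell. The share called higher over all tested genes was 1.06%. Scn2b, an auxiliary sodium channel subunit, stood at 32.4, 32.1 and 29.1 CPM in the saline libraries and 49.4, 44.7, 42.04 and 39.9 CPM in the cbx libraries, a log2 difference of 0.50 (SE 0.085) that failed without saline library 3 (adjusted p = 0.0565). Kcnc2, a potassium channel of fast-spiking neurons, went from 26.2 ± 0.321 to 34.9 ± 2.74 CPM and Kcna4, a channel of transient current, from 10.7 ± 0.556 to 14.9 ± 0.329 CPM (SD, n = 3 and 4), differences of 0.41 (SE 0.078) and 0.47 (SE 0.089). Both failed without saline library 2 (0.0685 and 0.052) or 3 (0.0628 and 0.0535), and Kcna4 also without saline library 1 (0.0706). None of 11 calcium channel genes passed. Npas4, a factor induced by neuronal activity, stood at 4.005, 4.44 and 4.05 CPM after saline and 5.11, 8.46, 7.14 and 8.19 CPM after cbx. It was the only call among 28 activity-regulated genes, rose by 0.79 (SE 0.19) on the log2 scale and passed only without cbx library 1 among the 7 fits (0.0628 to 0.132 in the others). Fos and Egr1 were at 0.43 (adjusted p = 0.162) and 0.60 (0.0995).

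Axon guidance genes gave 1 call, where 1.06% of all tested genes were called higher and 0.777% lower. Of 48 semaphorin, plexin, slit and netrin genes only Unc5a, a netrin receptor, passed. It stood at 19.9, 20.6 and 21.6 CPM after saline and 29.5, 28.6, 27.7 and 25.8 CPM after cbx, a log2 difference of 0.43 (SE 0.086), and failed without cbx library 2 (adjusted p = 0.0594) or saline library 1 (0.0862), 2 (0.0844) or 3 (0.0565). None of 22 Eph and ephrin genes and none of 28 cadherins and protocadherins passed. Of 14 connexin and pannexin genes tested, which encode the channels that cbx blocks, none passed. Gja1, the main astrocyte connexin, was at -0.11 (adjusted p = 0.705), Gjd2, the neuronal one, at 0.01 (0.974) and Panx1 at -0.11 (0.474).

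Markers of cell types other than astrocytes gave 2 calls, both lower, where 0.777% of all tested genes were called lower. Sox10, a factor of the oligodendrocyte lineage, went from 101 ± 1.48 to 83.8 ± 2.32 CPM (SD, n = 3 and 4), a log2 difference of -0.28 (SE 0.068), and failed in each of the 7 fits with a library left out (adjusted p 0.0546 to 0.178). En2, a factor of midbrain and cerebellum, stood at 7.82, 6.89 and 10.5 CPM after saline and 4.99, 5.16, 5.04 and 5.98 CPM after cbx, a difference of -0.67 (SE 0.14), and passed without saline library 2 or cbx library 4 (0.0514 to 0.146 in the others). Neither pan-neuronal markers (0 of 12 called, median 0.01) nor those of deep (0 of 9, 0.11) or superficial (0 of 12, -0.10) collicular neurons had a call. The 18 microglial markers had no call and a median of -0.11, with summed levels of 602.9 to 641.8 CPM after saline and 533.6 to 600.6 CPM after cbx. Meningeal fibroblast markers had no call among 22 and a median of -0.40, with sums of 107.6 to 125.9 CPM and 74.69 to 99.04 CPM, and 15 endothelial markers had a median of -0.16. The part of these cells in the results above was not tested.

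The same contrast in the superficial layer was set beside the deep one, in a test of the difference between layers. With edgeR no gene passed that test (0.0%), the smallest adjusted p was 0.1045, and 1699 genes had an unadjusted p below 0.05. DESeq2 called 60 such differences, limma-voom with the pool as a random block 5 and the fit with no low-count filter 256. Of the 31 genes described first, all 31 had the same direction in the superficial layer and 27 passed there too, where 880 genes passed in all (4.33%). The labels do not say whether same-numbered libraries of both layers came from the same brains, and their deviations from the group means correlated at 0.0825 to 0.425 over the 7 pairs. Insig1 was at -0.93 (SE 0.088, adjusted p = 3.93e-05) in the superficial layer and Ciart at -1.05 (SE 0.16, adjusted p = 0.00251). The 4 that did not pass were Rbm12, Pik3ip1, Tmem248 and Slc9a3r1, and Slc9a3r1 had the smallest p-value of the 31 for the layer difference (adjusted p = 0.262), at -0.35 in the deep and -0.0004 (SE 0.059) in the superficial layer.

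C1qa, Islr and Laptm5 had the smallest p-values of that test. C1qa, a complement subunit of microglia, was at -0.07 (adjusted p = 0.763) in the deep and 0.64 (SE 0.081, adjusted p = 0.000686) in the superficial layer, and the adjusted p of the difference was 0.1045. Laptm5, a lysosomal protein of microglia, was at -0.21 and 0.34, and Islr, a marker of fibroblasts whose exons overlap those of Islr2, at -0.43 and 0.42, each with an adjusted p of 0.118 for the difference. In the superficial layer, where 2.68% of all genes rose, 11 of 18 microglial and 7 of 22 meningeal fibroblast markers rose, with medians of 0.38 and 0.93. The part of these cells in the layer differences was not tested.

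**Figure D5:**
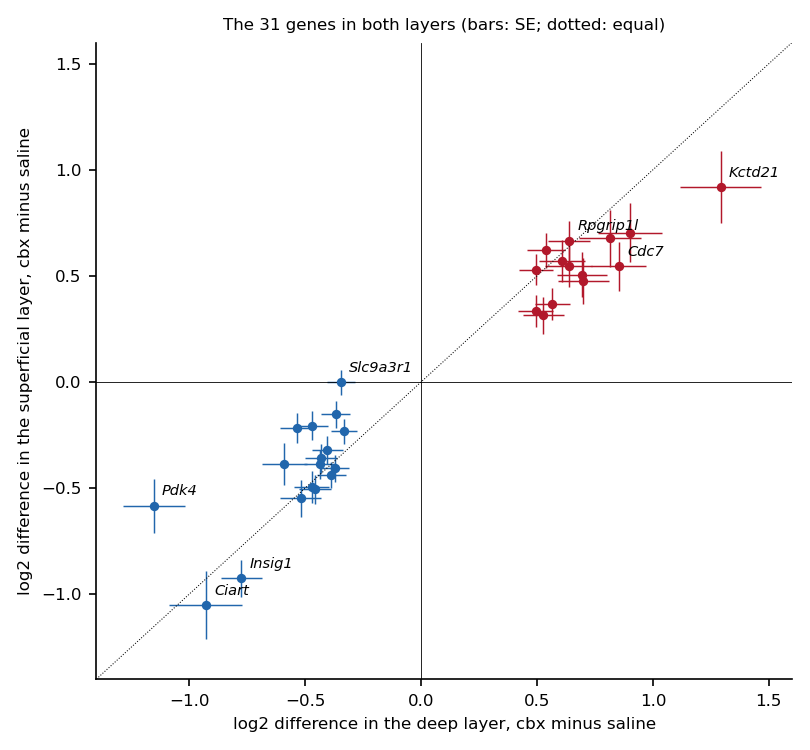
Log2 difference between cbx and saline in the superficial layer (vertical axis) against that in the deep layer (horizontal axis) for the 31 genes called with each deep library left out, with bars of 1 SE. Points along the dotted line differ equally in both layers, all 31 have the same sign in both, and Slc9a3r1 lies on the line of no superficial difference at -0.0004.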

How the data were processed

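Bulk poly-A RNA sequencing of the deep and superficial layers of the superior colliculus gave 14 libraries, all placed in a group by their labels. The authors deposited whole-number read counts per gene, 1 table per library with 55359 Ensembl IDs. The submitters' processing notes name STAR 2.7.9d, featureCounts of Subread 2.0.1, SAMtools 1.14 and FastQC 0.11.9 and, without a role, both GRCm39 and mm10. Which annotation and strand setting were used is not given in the sources used here. Reads of genes with shared exons therefore cannot be told apart. Symbols matched 52083 IDs holding 98.7% of the counts, and gene types, lengths, GC content and exon overlaps came from GENCODE M21.

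Counts were fitted with edgeR 4.0.16 in R 4.3.3: filterByExpr by group (20330 genes), TMM scaling, 4 group means over all 14 libraries (10 residual degrees of freedom), a robust quasi-likelihood test and Benjamini-Hochberg adjustment over all genes with a threshold of 0.05. Log2 differences are cbx minus saline. The SE is the log2 difference divided by the square root of F. Counts were simulated for 20330 genes, of which 200 with a mean of at least 1 CPM were changed. The test recovered 4%, 64%, 88% and 98% of changes of 1.2-, 1.5-, 2- and 3-fold and called 0.0298% of unchanged genes. The simulated libraries were independent, and unchanged genes had the same mean in both layers. These rates are therefore only a guide to the real comparison and do not cover changed genes of lower level.

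The genes named are those called with each of the 7 deep libraries left out, the 10 largest rises and falls among called protein-coding genes of at least 1 CPM with no overlap between groups, up to 4 members of each list by p-value, the 3 smallest p-values of the layer difference and sex-linked genes; other list members, such as Hsd11b1, Nr3c1, Dbp, Cry2, Per2, Hlf and members with no call, were added after their values were seen. The members and lists were chosen with earlier results of these data known, so list counts are descriptions. Alternatives were median-of-ratios size factors, other count filters, DESeq2 1.42.0, limma-voom (limma 3.58.1) without and with the pool as a random block, only the deep libraries, a minimum fold of 1.2, a replicate block, a Y-linked covariate, removal of length and GC trends, and fits without libraries or pools. Promoters came from RefSeq windows on GRCm38.p6. None of the 9 pairs of deep libraries within a group agreed within sampling noise. A few of the genes so chosen are not reported here.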

Additional observations from a re-analysis of the deposited data

Results flagged for a closer look

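In 169 named genes the 4 cbx libraries were searched for one that lay far from the other 3 by Dixon's criterion at the 95% level, and 8 genes had such a library, where chance marks about 1 in 20 groups. Ciart was lowest in cbx library 1, at 2.933 CPM against 4.368 to 4.508 CPM in the others, so its fall was largest there. Cbx library 2 stood high for the raised genes Fgf11 (52.5 CPM against 43.06 to 43.9) and Sltm (62.3 against 59.57 to 59.95), and low for the raised gene Rdm1 (2.02 against 3.411 to 3.565). It was also the only cbx library with counts of Cxcl10, a chemokine, at 0.0546 CPM. In cbx library 4, Ift80 was lowest at 11.31 CPM against 12.74 to 13.01, and Epha7, an ephrin receptor that was not called, was lowest at 67.62 CPM against 89.98 to 94.25. Neo1, a receptor for netrins and repulsive guidance molecules that was not called, was highest in cbx library 3, at 273.7 CPM against 257.5 to 260.1.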

How the results depend on the processing

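The 373 calls in the deep layer became 566 with no low-count filter, 901 with DESeq2, 611 with only the deep libraries, 214 with Y-linked genes as a covariate, 14 without both pools of one sex, 4 against a minimum fold of 1.2, and 42 to 272 with 1 deep library left out. Under the other alternatives, apart from the replicate block given below, they numbered between 319 (limma-voom) and 479 (length and GC trends removed). Same-numbered saline and cbx libraries did not deviate together (correlations of -0.0636, -0.0311 and -0.219, against -0.112 to 0.17 for other numbers). Whether the numbers mark litters or batches cannot be settled by so few pairs, and the labels do not say. With a replicate block 191 genes were called. The 31 genes called with each deep library left out became 16 with limma-voom and 83 with only the deep libraries. The test of a difference between layers gave 0 calls, 256 with no low-count filter, 60 with DESeq2 and 5 with limma-voom and the pool as a random block, and 0 under its other alternatives.

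No named gene that was called changed sign under any of the 19 alternatives. For the fits without libraries or pools this follows from the lack of overlap between groups in every called gene. Among those not called, the log2 difference turned positive without both pools of one sex for Cxcl10 (0.197), Mx1 (0.141) and Ifit3 (0.0681), and with the Y-linked covariate for Eif2s3y (0.102), Kdm5d (0.0334) and Uty (0.199). With 1 deep library left out it ran from -2.05 to 0.0114 for Rsad2 and from -1.94 to 0.0842 for Mx1, both highest without saline library 1. The causes were not tested. Changes of 1.2-fold were seldom recovered in simulated counts, so a gene without a call may still differ by that much.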
